A study of Mus musculus with 12 samples.

Results

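The Notch receptors Notch1, Notch2 and Notch3, the ligands Jag1, Jag2 and Dll1 and the target genes Hes1, Hey1, Hey2 and Heyl were followed in cultured mouse mesangial cells (MMC), contractile cells that hold the capillary loops of the kidney glomerulus together. These 10 genes were taken by symbol from the 25230 genes listed in the count files, and all 10 were found. The 12 RNA-seq libraries fell into 4 groups of 3. WT-SD and WT-TGF came from wild-type MMC and KO-SD and KO-TGF from MMC with a knockout of the long noncoding RNA lncMGC. The SD groups were serum-depleted controls, and the TGF groups received TGF-β at 10 ng/ml for 24 h. WT and knockout cells shared the medium and the serum supplement. The knockout MMC came from 1 mouse line, KO5, made in C57BL/6J embryos, in which CRISPR-Cas9 had removed a short stretch just downstream of the lncMGC start site, and the primary cultures were grown from pooled glomeruli at early passage. lncMGC was not among the counted genes, so the genotype labels could not be checked against the deleted gene, and a second knockout line was not analysed here. The study calls the libraries of a group independent samples without saying whether they were separate cultures or animals, so each p-value measures the spread between these libraries, which may be technical.

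Notch receptors are cut by furin on the way to the cell surface and bind Jagged or Delta-like ligands on a neighbouring cell. Binding exposes the receptor to ADAM proteases and then to γ-secretase, which frees an intracellular domain that enters the nucleus, joins the DNA-binding protein RBPJ and a Mastermind coactivator, and turns on genes of the HES and HEY families. These are basic helix-loop-helix repressors, so the mRNA of Hes1, Hey1, Hey2 and Heyl is often read as a measure of Notch output, although other pathways, TGF-β signalling among them, also act on these genes. In the kidney, Notch signalling is best known for patterning the nephron during development and for its return in glomerular and tubular disease, and Jag1 is a known TGF-β-responsive ligand. Only mRNA was measured here, not ligand, receptor cleavage or protein.

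The members lie at separate loci in the RefSeq annotation of GRCm38.p6, the same primary assembly as the mm10 build used for counting. The receptors are Notch1 at chr2:26457902-26503822, Notch2 at chr3:98013538-98150367 and Notch3 at chr17:32120820-32166896. The ligands are Jag1 at chr2:137081451-137116520, Jag2 at chr12:112907803-112929812 and Dll1 at chr17:15367354-15376932. The targets are Hes1 at chr16:30065357-30067796, Hey1 at chr3:8663359-8667038, Hey2 at chr10:30832359-30842783 and Heyl at chr4:123233556-123249870. Each count covers the exons of the gene as a whole.

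Promoter sequences from RefSeq (GRCm38.p6), 250 bases before to 50 after a start site, were given for 7 of the 10 members, in 8 windows, because Dll1 had 2. Hey1, Heyl and Hes1 had no entry. Both strands were searched for the RBPJ core TGGGAA, the E-box CACGTG and the N-box CACNAG, which HES and HEY proteins bind, and the SMAD half-site CAGAC. Among all 32851 promoters of 300 bases, 25.6% held the RBPJ core, 7.15% the E-box, 42.5% the N-box and 49.6% the SMAD half-site. A match is a description of the letters and not evidence of binding. The Jag1 and Notch3 promoters are shown because these were the ligand that rose and the receptor that fell most among the tested members, and capitals mark the SMAD half-site on either strand. Jag1 held 1 such site, starting 209 bases before the start site, at chr2:137116521-137116770 on the minus strand. Notch3 held 2, starting 152 and 133 bases before it, at chr17:32166897-32167140 on the minus strand. The 2 Dll1 windows, not shown, also held the SMAD half-site, with 1 match in one and 2 in the other. No other member window held it. All sequences run 5′ to 3′ along the gene.
Jag1 promoter: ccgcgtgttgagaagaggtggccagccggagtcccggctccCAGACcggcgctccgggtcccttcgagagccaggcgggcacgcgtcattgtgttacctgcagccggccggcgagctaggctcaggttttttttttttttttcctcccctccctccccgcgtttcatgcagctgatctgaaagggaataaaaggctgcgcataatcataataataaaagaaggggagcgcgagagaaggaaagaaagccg
Notch3 promoter: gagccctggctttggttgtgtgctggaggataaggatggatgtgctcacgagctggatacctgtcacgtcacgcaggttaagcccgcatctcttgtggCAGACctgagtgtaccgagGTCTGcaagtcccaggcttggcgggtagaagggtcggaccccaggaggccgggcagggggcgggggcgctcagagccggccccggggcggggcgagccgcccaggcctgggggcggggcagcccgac
The 2 stretches around the RBPJ cores of Hey2 are shown because Hey2 was the one member whose window held that motif. They lie at chr10:30842973-30843002 and chr10:30842769-30842798 on the minus strand, the first with the core on the opposite strand, and capitals mark the core.
Hey2 upstream site: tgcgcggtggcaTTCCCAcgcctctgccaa
Hey2 start site: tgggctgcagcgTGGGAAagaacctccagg
The N-box was matched 3 times in the Notch1 window, where the 2 matches at the start site overlap each other, 2 times in Notch3 and once each in Notch2 and 1 Dll1 window. No member window held the E-box letters, and the Jag2 window held none of the 4 motifs.

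The libraries held 19898050 to 22827706 counts on genes. Levels are given as CPM, the counts relative to a fixed library total, scaled by TMM, which corrects for differences in composition between libraries, or as RPKM (CPM per kilobase of exon) where genes are compared with each other. A gene was tested if its RPKM, taken for this filter without the TMM scaling, was above 1 in at least 1 library, which left 11528 genes. FDR is the Benjamini-Hochberg adjusted p of edgeR's quasi-likelihood test over all of them, and a gene was called at an FDR below 5%. SE and intervals of a log2 fold change come from that fit. Of the 10 members, 7 were tested. Jag2, Dll1 and Heyl never reached the limit, and their values come from a wider fit over the 18565 genes counted at least once. The p-values of that wider fit match a normal distribution, with no allowance for a spread estimated from 3 libraries a group. Its FDRs are therefore not comparable with those of the tested genes. For Hey1 on TGF-β in WT MMC, the SE was 0.147 among the tested genes and 0.149 in the wider fit. The edgeR p-values were 4.7e-11 and 2.6e-24. Hey1 passed through its 3 WT-TGF libraries alone, the group in which it was highest. The TGF-β target genes Smad7 and Skil rose on treatment in both genotypes, by log2 fold changes of 0.88 and 1.34 in WT and of 0.87 and 1.33 in KO5 MMC, while Tgfbi rose in WT (2.42) and fell in KO5 MMC (−0.34, FDR 0.0214).

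Notch2 and Jag1 were the most abundant receptor and ligand in every group, and Hes1 the most abundant target. In WT-SD, Notch2 had 56.8 ± 0.84 RPKM (SD, n = 3) and Jag1 56.2 ± 1.6, and these were the only neighbours in the order of that group whose libraries overlapped. They were followed by Hes1 at 13.7 RPKM, Notch3 at 8.13, Notch1 at 3.78, Hey2 at 1.97, Hey1 at 0.613, Jag2 at 0.332, Dll1 at 0.223 and Heyl at 0.0266. The serum-depleted WT cells therefore held a receptor pool that was mostly Notch2, with a share of 82.7% ± 0.20 of the summed receptor RPKM, and a ligand pool that was almost entirely Jag1, with a share of 99.0% ± 0.12.

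**Figure D1:**
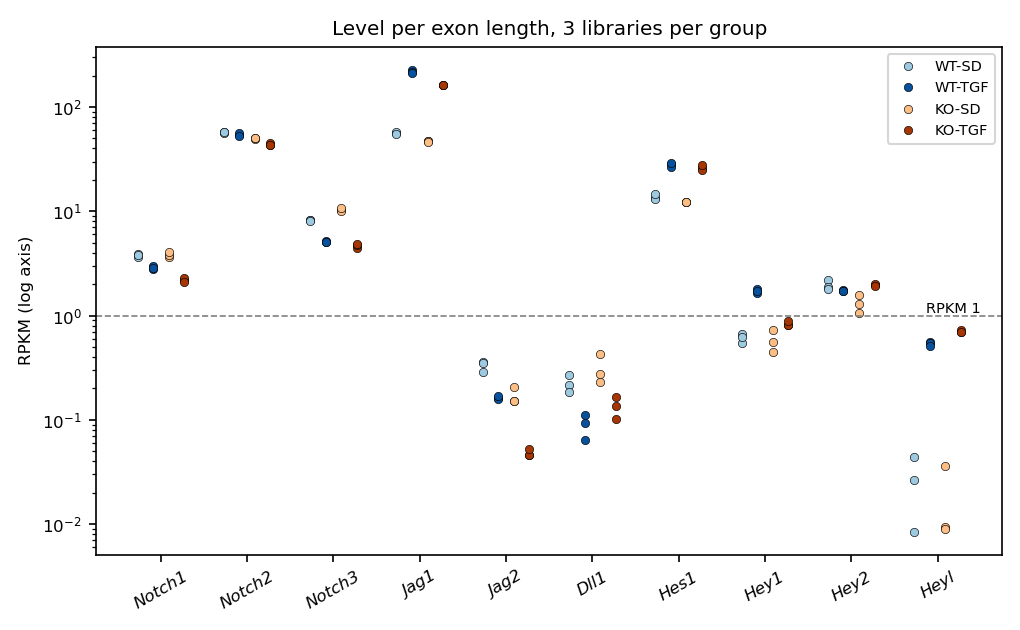
RPKM of the 10 members in each of the 12 libraries on a log axis, with points coloured by group and a dashed line at RPKM 1. Jag1 overlaps Notch2 in WT-SD, lies just below it in KO-SD (47.0 against 49.8) and lies above it in both TGF groups, and Jag2, Dll1 and Heyl stay below the line in every library.

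With TGF-β, Jag1 moved to the top of the order, and Heyl moved from the last place to above Jag2 and Dll1 in both genotypes. In WT-TGF, Jag1 led with 218 ± 6.8 RPKM against 54.3 ± 1.4 for Notch2, so that the ratio of Jag1 to Notch2 went from 0.990 ± 0.042 to 4.02 ± 0.17. In the knockout the same ratio went from 0.944 ± 0.022 in KO-SD to 3.70 ± 0.070 in KO-TGF. The order at the top was the same in KO-TGF as in WT-TGF, with Jag1 at 162 RPKM, Notch2 at 43.9, Hes1 at 26.2, Notch3 at 4.70 and Notch1 at 2.18. Further down it differed: Hey1 and Hey2 overlapped in WT-TGF at 1.72 RPKM each, whereas in KO-TGF Hey2 had 1.97 RPKM and Hey1 0.841, with no overlap. The ratio of Hey1 to Hey2 was 0.312 ± 0.030 in WT-SD, 1.0 ± 0.041 in WT-TGF, 0.446 ± 0.10 in KO-SD and 0.427 ± 0.032 in KO-TGF. These ratios are descriptions and were not tested.

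**Figure D2:**
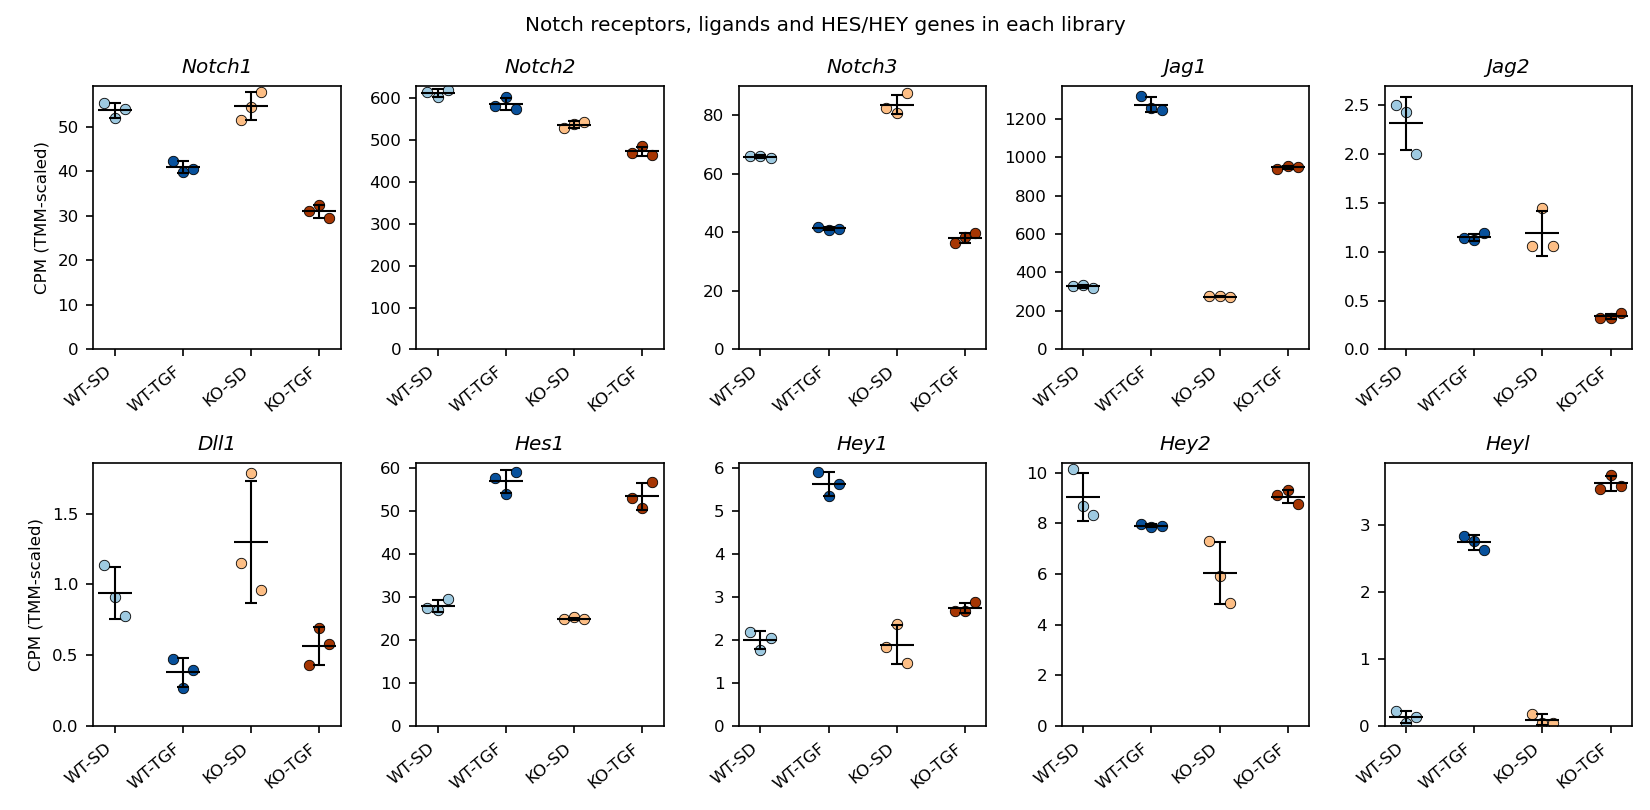
TMM-scaled CPM of each member in each library (points), with the mean and SD of the 3 libraries of a group (bar and whiskers); the vertical axis of each panel starts at 0. Jag1, Hes1, Hey1 and Heyl are higher in both TGF groups than in the SD group of the same genotype, and the receptors are lower, though the Notch2 libraries overlap in WT.

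The first comparison was the response to TGF-β in WT MMC. Jag1, Hes1 and Hey1 rose, Notch1, Notch2 and Notch3 fell, and Hey2 was not called. Thus 3 of the 7 tested members were higher and 3 lower, beside 36.0% of all genes tested that were higher and 36.4% that were lower. The 3 that rose also passed the study's threshold of a fold change above 2, which 9.91% of all genes did in either direction. Hey1 was tested only through its WT-TGF level, which favours a rise, so its part in these counts is not support for one. Without the RPKM limit, in the fit of all genes, its log2 fold change was 1.52 (SE 0.15). The FDR there, 1.82e-23, is not comparable with those of the tested genes, for the reason given above. In this wider fit, where 51.6% of genes were called, Heyl rose and Jag2 and Dll1 fell, giving 4 higher and 4 lower of the 10 members. The median log2 fold change of the 7 tested members was −0.06, and that of all genes tested was −0.00.

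Jag1, the ligand, had 328, 336 and 318 CPM in the WT-SD libraries and 1317, 1255 and 1244 in WT-TGF. The groups were far apart, and the fit gave a 3.88-fold rise (log2 fold change 1.96, SE 0.026, FDR 2.64e-32). Jag2, a second Jagged ligand, had 55, 56 and 44 counts in WT-SD and 24, 25 and 24 in WT-TGF, a log2 fold change of −0.98 (SE 0.21, FDR 1.24e-05). Dll1, a Delta-like ligand, had 25, 21 and 17 counts against 10, 6 and 8. Its summed counts gave a ratio of 0.400 with a 95% interval of 0.239 to 0.649 that covers counting error only, and the FDR was 0.000556. The 3 ligands thus moved in opposite directions, with the minor ones at levels where a library held few reads.

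Among the targets, Hes1, the most widely used Notch readout, had 27.5, 26.8 and 29.5 CPM in WT-SD and 57.6, 53.9 and 59.0 in WT-TGF. It rose 2.03-fold (log2 fold change 1.02, SE 0.049, FDR 6.79e-18). Hey1 had 2.18, 1.78 and 2.05 CPM in WT-SD and 5.91, 5.35 and 5.63 in WT-TGF, and rose 2.81-fold (log2 fold change 1.49, SE 0.15, FDR 2.10e-10). Heyl went from 5, 1 and 3 counts to 60, 62 and 53. The summed counts of Heyl, 9 against 175, gave a ratio of 20.4 with a counting interval of 10.5 to 45.4 (FDR 3.30e-39). Hey2 did not follow them. It had 10.1, 8.67 and 8.33 CPM in WT-SD and 7.99, 7.85 and 7.90 in WT-TGF, and although the libraries did not overlap its log2 fold change of −0.19 had an interval of −0.40 to 0.01 (FDR 0.103). Scaling by library size alone called it lower (log2 fold change −0.35, FDR 0.00360).

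The receptors fell by less than 2-fold in WT MMC. Notch3, the receptor typical of vascular smooth muscle and pericytes, had 66.0, 66.0 and 65.2 CPM in WT-SD and 41.9, 40.9 and 41.1 in WT-TGF, a log2 fold change of −0.67 (SE 0.041, FDR 2.79e-15). Notch1 had 55.3, 51.9 and 54.0 CPM against 42.4, 39.8 and 40.7, a log2 fold change of −0.39 (SE 0.046, FDR 6.55e-09). Both sets of libraries were separate. Notch2 had 615, 602 and 620 CPM against 581, 602 and 573, and these libraries overlapped. Its log2 fold change was −0.06 (interval −0.11 to −0.02, FDR 0.0206), and the call was lost when WT-SD replicate 1 or 3 or WT-TGF replicate 1 or 3 was left out (FDR up to 0.115) and with the 2 other filters on low counts (FDR 0.100 and 0.265).

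In KO5 MMC the response to TGF-β ran in the same directions for the receptors, for Jag1 and for Hes1 and Hey1, and Hey2 rose as well. All 7 tested members were called, 4 higher and 3 lower, beside 34.9% and 39.1% of all genes tested. Jag1, Hes1 and Notch3 passed the 2-fold threshold, which 13.5% of all genes did. All 10 members were called in the fit of all genes, 5 in each direction, where 52.3% of genes were called. The median log2 fold change of the 7 was 0.54, beside −0.03 over all genes tested. The comparison uses other libraries than the one in WT MMC, with its own SD group.

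Jag1 had 276, 276 and 271 CPM in KO-SD and 938, 953 and 948 in KO-TGF, a 3.45-fold rise (log2 fold change 1.79, SE 0.026, FDR 2.53e-31). Jag2 went from 23, 30 and 23 counts to 6, 6 and 7, a ratio of summed counts of 0.285 with a counting interval of 0.163 to 0.476 (FDR 7.21e-07). Dll1 went from 25, 37 and 21 counts to 8, 13 and 11, a ratio of 0.439 with an interval of 0.283 to 0.668 (FDR 0.000332). As in WT MMC, the abundant ligand rose and the scarce ones fell.

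Hes1 had 24.9, 25.2 and 24.8 CPM in KO-SD and 52.9, 50.5 and 56.7 in KO-TGF, and rose 2.14-fold (log2 fold change 1.10, SE 0.052, FDR 3.34e-18). Heyl went from 4, 1 and 1 counts to 66, 70 and 68, a ratio of 38.8 with a counting interval of 17.5 to 107 (FDR 1.13e-52). Hey2 had 7.30, 5.94 and 4.86 CPM in KO-SD and 9.11, 9.30 and 8.78 in KO-TGF, and rose 1.50-fold (log2 fold change 0.59, SE 0.12, FDR 3.95e-05). Its KO-SD libraries were the most spread of the 4 groups. Hey1 rose from 1.84, 2.36 and 1.47 CPM to 2.68, 2.67 and 2.89 (log2 fold change 0.54, SE 0.18, FDR 0.00787). That call was lost without KO-SD replicate 3 (log2 fold change 0.39, FDR 0.0681) and with scaling by library size alone (0.34, FDR 0.0854).

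The receptors fell further than in WT MMC. Notch3 had 82.5, 80.8 and 87.3 CPM in KO-SD and 36.2, 38.2 and 39.7 in KO-TGF, a log2 fold change of −1.14 (SE 0.041, FDR 4.59e-21). Notch1 had 51.5, 54.5 and 57.8 CPM against 31.1, 32.6 and 29.6, a log2 fold change of −0.81 (SE 0.049, FDR 1.73e-15). For Notch2 the values were 529, 538 and 544 CPM in KO-SD and 469, 485 and 465 in KO-TGF, a log2 fold change of −0.18 (SE 0.025, FDR 9.62e-08). No receptor's KO-SD and KO-TGF libraries overlapped.

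**Figure D3:**
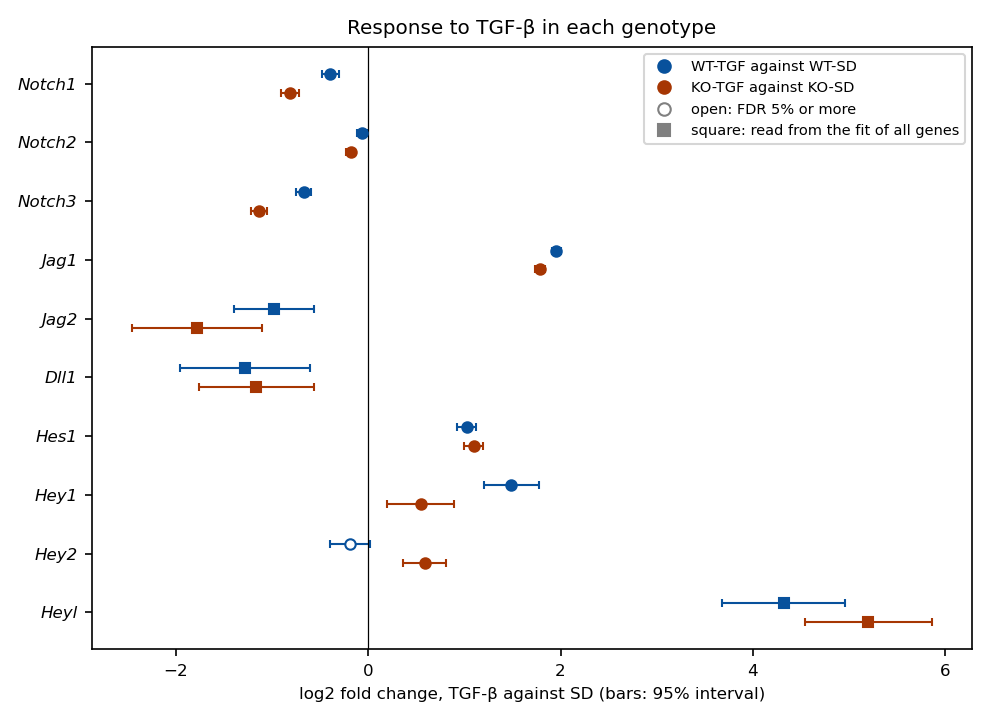
Log2 fold change on TGF-β against SD for each member in WT (blue) and KO5 (brown) MMC, with 95% intervals; filled symbols are called at FDR below 5% and squares are read from the fit of all genes. Notch1 and Notch3 lie further below 0 in KO5 than in WT MMC, Hey1 lies closer to 0 in KO5 (0.54 against 1.49), and Hey2 lies below 0 in WT (−0.19, not called) and above it in KO5 (0.59).

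Whether the response differed between the genotypes was tested directly as an interaction, the log2 response in KO5 minus that in WT MMC. Of the 7 tested members, 1 was called higher (Hey2) and 5 lower (Notch1, Notch2, Notch3, Jag1 and Hey1), beside 8.67% higher and 16.6% lower among all genes tested. For the receptors a lower value means a larger fall in KO5, and for Jag1 and Hey1 a smaller rise. Hes1 was not called. The median difference of the 7 members was −0.17, and that of all genes tested was −0.03. Each response uses its own libraries, but the interaction rests on all 4 groups.

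Hey1 differed by −0.95 (SE 0.24, FDR 0.00300), with a 2.81-fold rise in WT and a 1.46-fold rise in KO5 MMC. It had passed the RPKM limit only through WT-TGF, where it was highest, which favours a difference of this sign. In the fit of all genes, which has no such limit, the value was −0.96 (FDR 0.000760). Hey2 differed the other way, at 0.78 (SE 0.16, FDR 0.000275). Notch3 differed by −0.46 (SE 0.059, FDR 2.94e-07) and Notch1 by −0.42 (SE 0.068, FDR 1.36e-05). The difference of Jag1 was −0.17 (SE 0.036, FDR 0.000448), from a 3.88-fold and a 3.45-fold rise. For Notch2 it was −0.12 (SE 0.035, FDR 0.00995), and that call was lost in DESeq2 (FDR 0.0568) and without KO-TGF replicate 1, 2 or 3 (FDR 0.166, 0.0540 and 0.205). Hes1 differed by 0.07, with an interval of −0.07 to 0.22 (FDR 0.504).

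In the fit of all genes, where 17.3% were called, the differences of the 3 low members had wide intervals. That of Jag2 was −0.80 (−1.63 to 0.03, FDR 0.222), that of Heyl 0.88 (−0.61 to 2.37, FDR 0.551) and that of Dll1 0.11 (−0.80 to 1.03, FDR 1.0). A 2-fold difference in response, in at least 1 direction, lay within each of the 3 intervals.

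The next comparison set KO5 against WT MMC in serum depletion. Jag1, Hey2, Hes1 and Notch2 were lower and Notch3 higher in KO-SD, so that 1 of the 7 members was higher and 4 were lower, beside 30.9% and 25.2% of all genes tested. No tested member passed the 2-fold threshold, which 6.44% of genes did. In the fit of all genes, with 41.3% called, Jag2 was lower as well, giving 1 higher and 5 lower of 10. The median log2 fold change of the 7 was −0.16, beside 0.02 over all genes tested.

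Notch3, with 65.2 to 66.0 CPM in WT-SD and 80.8 to 87.3 in KO-SD, was 1.27-fold higher in the knockout (log2 fold change 0.35, SE 0.037, FDR 2.47e-09), and the libraries were separate. Notch2 was lower (log2 fold change −0.19, SE 0.024, FDR 9.03e-08), at 602 to 620 CPM in WT-SD and 529 to 544 in KO-SD. Notch1 overlapped between the groups (log2 fold change 0.02, interval −0.06 to 0.11, FDR 0.670). The share of Notch3 in the receptor RPKM was 11.8% ± 0.22 in WT-SD and 16.1% ± 0.43 in KO-SD, and that of Notch2 fell from 82.7% ± 0.20 to 77.9% ± 0.54. With TGF-β the Notch3 share was 8.19% ± 0.23 in WT and 9.27% ± 0.47 in KO5 MMC.

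Jag1 was 1.20-fold lower in KO-SD (log2 fold change −0.26, SE 0.026, FDR 6.68e-10), with its 3 libraries at 271 to 276 CPM below the 318 to 336 of WT-SD. Jag2 was lower by 0.94 on the log2 scale (SE 0.21, FDR 3.94e-05), at 23 to 30 counts against 44 to 56. Dll1 overlapped (0.48, interval −0.02 to 0.99, FDR 0.129), and without KO-SD replicate 3 it was called higher (0.66, FDR 0.0473). Hey2, with 4.86 to 7.30 CPM in KO-SD and 8.33 to 10.1 in WT-SD, had a log2 fold change of −0.58 (SE 0.11, FDR 4.72e-05). Hes1 was 1.12-fold lower (log2 fold change −0.16, SE 0.056, FDR 0.0138), a call lost without WT-SD replicate 3 (FDR 0.0925). Hey1 overlapped (−0.09, interval −0.45 to 0.28, FDR 0.716), and so did Heyl, with at most 5 counts in any SD library.

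After TGF-β, KO5 MMC had less mRNA than WT MMC for Jag1, Hey1 and the 3 receptors. None of the 7 tested members was called higher and 5 were called lower, beside 27.2% and 27.8% of all genes tested. Hey1 passed the 2-fold threshold, which 6.05% of genes did, but it was tested only because of its WT-TGF level, so that count is not support for a difference. At an unadjusted p below 0.05 in the same edgeR test, and in DESeq2, the count of higher members was also 0. In the fit of all genes, where 39.0% were called, Jag2 was lower and Heyl higher, and Notch3 was not called, giving 1 higher and 5 lower of 10. The median log2 fold change of the 7 was −0.31, beside −0.00 over all genes tested.

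Jag1 was 1.34-fold lower (log2 fold change −0.43, SE 0.024, FDR 1.19e-15), with 938 to 953 CPM in KO-TGF and 1244 to 1317 in WT-TGF. Jag2 was lower by 1.73 on the log2 scale (SE 0.35, FDR 3.04e-06), and its 19 counts over the KO-TGF libraries against 73 in WT-TGF gave a ratio of 0.295 with a counting interval of 0.168 to 0.493. Dll1 overlapped between the groups, with 32 against 24 counts and a ratio of 1.51 with an interval of 0.861 to 2.68. The ligand transcripts summed to 219 ± 6.8 RPKM in WT-TGF and 163 ± 1.4 in KO-TGF, nearly all of it Jag1, while the receptors summed to 62.3 ± 1.3 and 50.8 ± 1.1. The ratio of these sums was 3.51 ± 0.13 in WT-TGF and 3.20 ± 0.052 in KO-TGF.

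Between the TGF groups, Hey1 was 2.04-fold lower in the knockout (log2 fold change −1.03, SE 0.14, FDR 3.29e-07), and without the RPKM limit, in the fit of all genes, the value was −1.02 (FDR 1.94e-11). Its libraries held 50, 50 and 55 counts in KO-TGF and 125, 120 and 114 in WT-TGF. Hes1 overlapped, at 50.5 to 56.7 CPM against 53.9 to 59.0, with a log2 fold change of −0.09 (interval −0.18 to 0.00, FDR 0.100). Hes1 was called lower without WT-TGF replicate 2 or KO-TGF replicate 3 (FDR 0.0322 and 0.0485) and with scaling by library size alone (−0.21, FDR 0.000173). Hey2 had 8.78 to 9.30 CPM in KO-TGF and 7.85 to 7.99 in WT-TGF, which did not overlap, but the fit gave 0.20 (interval −0.02 to 0.41, FDR 0.133). Heyl was higher by 0.41 on the log2 scale (SE 0.16, FDR 0.0328), a call lost with scaling by library size alone (FDR 0.173), in DESeq2 (FDR 0.170) and without WT-TGF replicate 2 or 3 or any KO-TGF replicate (FDR up to 0.0927). The targets thus differed among themselves, and Hey1 was the one whose lower level in KO-TGF held in every alternative run.

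Notch1 had a log2 fold change of −0.40 between KO-TGF and WT-TGF (SE 0.051, FDR 8.84e-08) and Notch2 one of −0.31 (SE 0.025, FDR 4.06e-12). Both sets of libraries were separate. For Notch3 the value was −0.12 (SE 0.046, FDR 0.0297), and the call was lost in DESeq2 (FDR 0.122), without any filter on low counts (FDR 0.0780) and without WT-TGF replicate 1 or 3 or KO-TGF replicate 1 or 2 (FDR up to 0.297). Notch3 was therefore higher in KO5 in serum depletion and close to WT after TGF-β, and the difference between these 2 contrasts is the interaction given above.

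**Figure D4:**
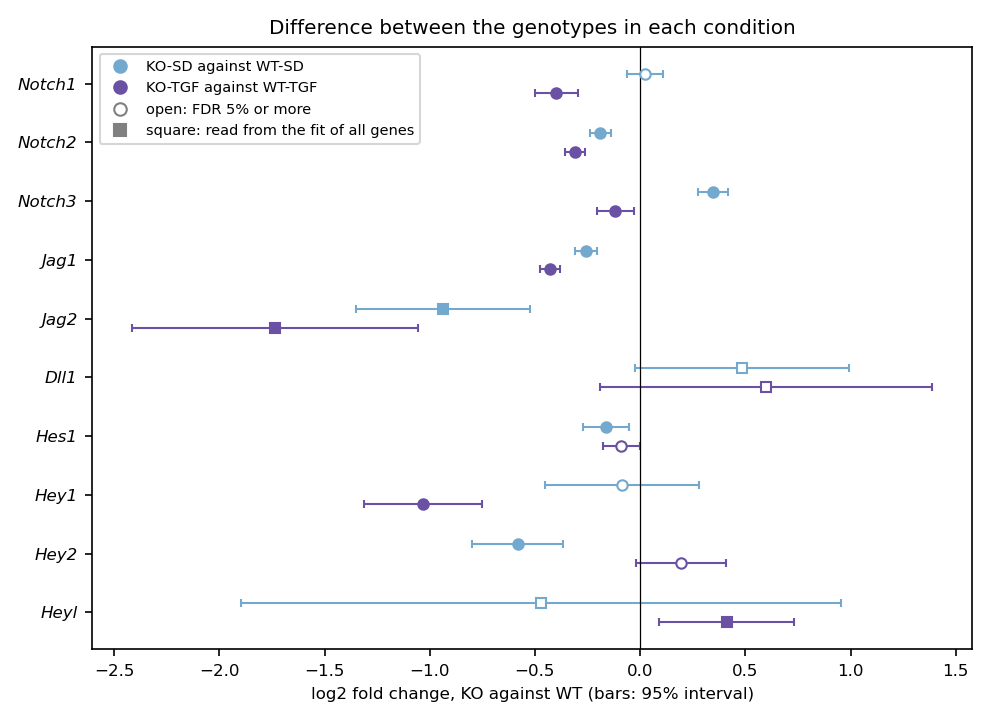
Log2 fold change of KO5 against WT MMC for each member in serum depletion (light blue) and after TGF-β (purple), with 95% intervals; filled symbols are called at FDR below 5% and squares are read from the fit of all genes. Hey1 and Notch1 lie near 0 in SD (−0.09 and 0.02) and below it after TGF-β (−1.03 and −0.40), Notch3 changes side from 0.35 to −0.12, and Jag2 lies lowest in both conditions.

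The rest of the pathway was read from a list of 61 genes grouped by role, of which 45 were tested. On TGF-β, 12 were higher and 24 lower in WT MMC and 14 higher and 24 lower in KO5 MMC, with median log2 fold changes of −0.11 in both genotypes. Among all genes tested, 36.0% were higher and 36.4% lower in WT, and 34.9% and 39.1% in KO5 MMC. With scaling by library size alone, 6 were higher and 30 lower in WT and 5 higher and 35 lower in KO5 MMC. Between the genotypes, 12 were higher and 14 lower both in SD and after TGF-β, against 8 and 24 in SD and 3 and 28 after TGF-β with scaling by library size alone. With TMM, the shares over all genes tested were 30.9% higher and 25.2% lower in SD, and 27.2% and 27.8% after TGF-β. In the interaction, 2 were higher and 7 lower, beside 8.67% and 16.6% of all genes tested.

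Of the enzymes that modify or cut the receptor, Lfng and Furin rose most on TGF-β, while 3 tested proteases were higher and 4 lower in WT MMC and 4 and 4 in KO5 MMC. Lfng, the Fringe glycosyltransferase that shifts receptors between Delta-like and Jagged ligands, had 12.6 ± 0.30 CPM in WT-SD, 45.6 ± 1.5 in WT-TGF, 11.4 ± 0.31 in KO-SD and 24.9 ± 1.7 in KO-TGF. Its log2 response was 1.85 in WT and 1.13 in KO5 MMC, and the difference of −0.72 was called (SE 0.091, FDR 2.81e-07). Furin, the convertase of the first cleavage, rose by 1.03 and 1.08 on the log2 scale, with no call for a difference (0.05, FDR 0.392). Among the other proteases, Adam17 fell by 0.39 and 0.42 on the log2 scale and Adam10 by 0.23 and 0.22. The interaction FDR of the 8 tested proteases ran from 0.392 to 0.975.

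Among the ubiquitin ligases and adaptors, Dtx4, a Deltex family ligase, fell by 1.83 on the log2 scale in WT and by 1.40 in KO5 MMC, a difference of 0.43 (FDR 2.14e-07). Neurl1b, a Neuralized ligase that acts on ligands, had 16.5 ± 1.4 and 9.40 ± 0.45 CPM in WT-SD and WT-TGF and 14.6 ± 1.3 and 4.17 ± 0.33 in KO-SD and KO-TGF. It fell by 0.81 on the log2 scale in WT and by 1.80 in KO5 MMC, a difference of −0.99 (SE 0.14, FDR 1.52e-06). Fbxw7, which marks the free intracellular domain for breakdown, rose by 0.81 and 0.82 on the log2 scale.

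Of the nuclear partners, Rbpj, which recruits the complex to DNA, had 46.9 ± 4.1 and 42.6 ± 1.2 CPM in WT-SD and WT-TGF and 47.3 ± 2.8 and 43.8 ± 1.5 in KO-SD and KO-TGF, and was called in WT alone (log2 fold change −0.14, FDR 0.0189), while its difference in response was 0.03 (FDR 0.854). The Mastermind coactivator Maml3 fell by 0.35 on the log2 scale in WT and by 0.70 in KO5 MMC, a difference of −0.35 (SE 0.069). Of the corepressors, Tle2 fell by 1.56 and 1.72 on the log2 scale. Tle4, another Groucho-type corepressor, rose by 0.24 in WT (FDR 0.00405) and fell by 0.54 in KO5 MMC (FDR 2.58e-06), a difference of −0.79 (SE 0.12, FDR 3.35e-06).

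**Figure D5:**
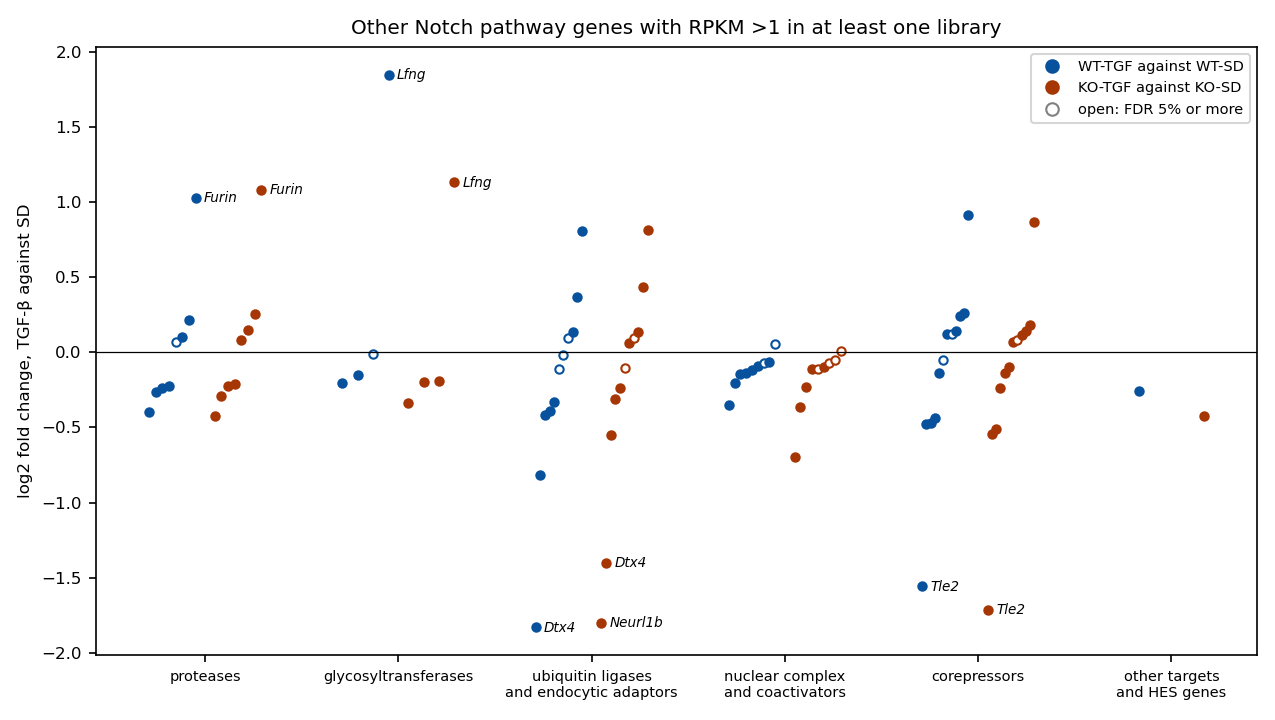
Log2 fold change on TGF-β against SD in WT (blue) and KO5 (brown) MMC for the 45 other Notch pathway genes tested, in columns by role; filled points are called at FDR below 5% and genes beyond 1 on either side are named. Lfng lies highest in both genotypes (1.85 and 1.13), and Dtx4, Tle2 and Neurl1b are the lowest.

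Genes of the list below the RPKM limit were read in the fit of all genes, and those named here were chosen after their values were seen. Nrarp, a feedback inhibitor and direct Notch target, had 12 to 23 counts in WT-SD and 40 to 49 in WT-TGF, and 5 to 10 in KO-SD and 21 to 29 in KO-TGF. It rose by 1.55 on the log2 scale in WT (FDR 8.03e-10) and by 1.71 in KO5 MMC (FDR 4.20e-07), and was lower in KO5 in both conditions (−0.84, FDR 0.0462 and −0.68, FDR 0.00734). The noncanonical ligand Dlk1, with 31 to 37 counts in WT-SD and 46 to 58 in WT-TGF, and 30 to 38 in KO-SD and 34 to 57 in KO-TGF, rose by 0.69 on the log2 scale in WT (FDR 0.000795) and by 0.63 in KO5 MMC (FDR 0.00321). Between the genotypes Dlk1 was not called (0.09, FDR 0.794 in SD and 0.03, FDR 0.996 after TGF-β). The study, by RT-qPCR, reports lower Dlk1 in KO5 MMC. Its relative Dlk2 fell from 20 to 30 counts to 2 to 4 in WT and from 12 to 22 counts to 2 to 3 in KO5 MMC. Dtx1 had 9 to 12 counts in WT-SD, 2 to 12 in WT-TGF, 2 in each KO-SD library and 0 in each KO-TGF library. The ligand Dll4 rose in WT MMC, from at most 3 counts to 5 to 8 (FDR 0.00714), and the receptor Notch4 never exceeded 19 counts, while Hes5, a classical Notch target, had 0 counts in all 12 libraries.

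Markers of other cells moved with the groups. Summed over 8 mesangial markers (Pdgfrb, Acta2 and Tagln among them), the libraries held 2542 to 2676 CPM in WT-SD, 5763 to 5913 in WT-TGF, 4908 to 5068 in KO-SD and 11014 to 11107 in KO-TGF, with 1 of the 8, Thy1, never above 3 counts. Most of this sum was Acta2 and Tagln, and not every marker followed it. Des, which encodes desmin, had 7.67, 5.62, 0.529 and 0.247 CPM in the same order, and Itga8, an integrin chain typical of mesangial cells, had 2.89, 1.61, 3.05 and 0.638. The 6 macrophage markers summed to 25.6 to 27.9, 15.6 to 19.3, 2.06 to 2.22 and 0.802 to 1.45 CPM in the same order, and all 6 were above 3 counts in at least 1 WT library. In the KO libraries Adgre1 had 0 counts, Itgam at most 2, Ptprc at most 1 and Lyz2 at most 10. Cd68 and Csf1r kept at least 6 and 8 counts there. The 8 endothelial markers summed to 33.2 to 33.5, 20.2 to 22.6, 17.2 to 18.5 and 9.25 to 10.9 CPM, nearly all of it Ehd3, while 3 of the 8, Cdh5, Emcn and Tie1, never exceeded 3 counts. For the 6 podocyte markers the sums were 459 to 467, 455 to 474, 218 to 227 and 205 to 220 CPM, and Nphs1, which encodes nephrin, never exceeded 3 counts. The 6 tubular markers summed to 42.4 to 45.0, 12.5 to 13.1, 11.9 to 12.9 and 6.36 to 7.18 CPM, with 3 of the 6 never above 3 counts. In every group but KO-TGF most of that sum was Lrp2 (42.6, 11.7, 10.8 and 3.28 CPM), while Slc12a1 ran the other way (0.358, 0.843, 1.25 and 3.05 CPM). The part of these cells in the differences between groups was not tested, and in bulk RNA a change in the number of cells of a type and a change in RNA per cell cannot be told apart.

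For each tested member whose highest and lowest group means differed at least 2-fold (Notch3, Jag1, Hey1 and Hes1), the 2 genes with the most similar log2 CPM over the 12 libraries were taken from 10509 genes. The 12 points share their groups and library scaling, so the correlations are descriptions. Notch3 was closest to Ntn1, which encodes the guidance cue netrin-1 (Pearson r = 0.995, with group means of 355 and 162 CPM in WT-SD and WT-TGF and 570 and 140 in KO-SD and KO-TGF), and to Spc25, a kinetochore subunit (r = 0.994). Jag1 was closest to Megf10, a transmembrane protein with EGF-like repeats (r = 0.999, with 7.18, 98.2, 5.54 and 55.1 CPM in the same order), and to Creb3l2, a membrane-bound transcription factor (r = 0.998). Hes1 was closest to Kcnk12, a potassium channel gene (r = 0.996), and Klf10, a TGF-β-inducible early gene (r = 0.995, with 39.7, 107, 35.8 and 100 CPM). Hey1 was closest to Ap1s2, a clathrin adaptor subunit (r = 0.969, with 32.2, 107, 31.5 and 51.9 CPM), and to P4ha3, a collagen prolyl hydroxylase subunit (r = 0.969). The genes were chosen for likeness to the member, so that they share its group pattern is not a separate result. Those nearest to Jag1, Hes1 and Hey1 were all higher in the TGF groups, and only those nearest to Notch3 were highest in KO-SD.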

How the data were processed

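The authors prepared libraries with a Kapa mRNA HyperPrep kit, used TopHat for alignment to mm10 and HTSeq for strand-specific counting on RefSeq genes. The deposited files hold raw counts for 25230 genes in 12 libraries; 22.2 to 27.4% of reads were given to no gene and were left out. Exon lengths for RPKM came from a GENCODE annotation (24719 genes matched).

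Counts were normalized by TMM and fitted in edgeR 4.0.16 (R 4.3.3) with 1 mean per group, over genes with RPKM >1 (before TMM) in at least 1 library. SE is the log2 fold change over the root of F, and its 95% interval is the normal one. The intervals of count ratios are exact binomial. Every member is described, and pathway genes are named if called with the largest or smallest change of their role or a fold change above 2, with others named for the members' partners; some genes of these lists are not reported here by name. Members and lists were chosen with earlier results of these data known. Alternatives were DESeq2 1.42.0, library-size scaling, other filters, a replicate block, fits of the groups compared alone and leaving out each library. The procedure was tested on simulated data.

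Libraries of a group differed beyond counting noise (chi-square per degree of freedom 1.33 to 5.20), so none was treated as a duplicate. An exact permutation test of 3 against 3 libraries cannot go below p = 0.1 and was not used.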

Additional observations from a re-analysis of the deposited data

Results flagged for a closer look

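The response to TGF-β differed between KO5 and WT MMC, by the interaction test in edgeR, for 6 of the 7 tested members. The difference in log2 response, KO5 minus WT, was −0.421 for Notch1, −0.463 for Notch3 and −0.12 for Notch2, which are larger falls in KO5. It was −0.17 for Jag1 and −0.945 for Hey1, which are smaller rises (for Hey1, which was tested only through its WT-TGF level, −0.96 in the fit of all genes), and 0.778 for Hey2, which rose in KO5 and was not called in WT. The difference of Notch2 was not called in DESeq2 or without any 1 of the 3 KO-TGF libraries. Among all genes tested, 8.67% differed upward and 16.6% downward.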

How the results depend on the processing

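Scaling by library size alone moved the median of all genes by −0.16, −0.20, −0.08, −0.12 and −0.05 on the log2 scale in the TGF-β response of WT, that of KO5, the genotype contrasts in SD and TGF, and the interaction. The other Notch pathway genes then numbered 6 and 5 higher on TGF-β in WT and KO5 (12 and 14 with TMM), 24 lower in KO-SD (14), and 3 higher and 28 lower in KO-TGF (12 and 14), and the uncalled difference of Notch1 in SD became −0.0520. Of the members' 40 group levels, 19 moved beyond 1 SD, by ratios of 0.900 to 1.09. DESeq2 called 4 pathway genes lower in the interaction (7). With genes kept at CPM >1 in 3 or more libraries, or all kept, 5 members were lower on TGF-β in KO5 (3) and 1 was higher in KO-TGF (0), since Jag2, Dll1 and Heyl then entered.

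The replicate block gave the same counts of members as the fit without it, 3 higher and 3 lower on TGF-β in WT, and changed no member's call; pathway counts moved by at most 1. Over the genes tested, the deviations of same-numbered libraries from their group means correlated by −0.026 to 0.076, so the numbers did not pair the libraries. Leaving out 1 library gave 2 to 4 pathway genes higher (4 without KO-TGF replicate 2) and 4 to 10 lower (4 without KO-TGF replicate 1) in the interaction, and uncalled values turned sign for Notch1 (−0.0197 to 0.0649), Hey1 (−0.27 to 0.0673) and Heyl (−1.38 to 0.0942) in SD and for Dll1 in the interaction (−0.0890 to 0.40, with −0.0430, −0.0642 and −0.0549 also below 0). The causes of these changes were not tested. The calls of Notch2 in WT, Notch3 and Heyl in KO-TGF, Hes1 in KO-SD, Hey1 on TGF-β in KO5 and Notch2 in the interaction were each lost under at least 1 alternative. Depth limited Jag2, Dll1 and Heyl, with 1 to 70 counts a library.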
